A study of Mus musculus with 2 samples.

Results

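The MHC class II genes encode the molecules that show peptides from ingested material to CD4+ T cells. Of the 31253 genes in the matrices, 10 are described here. They are the classical chains H2-Aa, H2-Ab1 and H2-Eb1, the invariant chain Cd74, the peptide exchange factors H2-DMa, H2-DMb1 and H2-DMb2, the inhibitor chains H2-Oa and H2-Ob, and the transactivator Ciita. They were chosen by gene symbol, and all 10 symbols were found. The data are single-cell transcriptomes of the mouse pancreas, made with BD Rhapsody, a bead and microwell system in which RNA molecules are counted by molecular identifiers (UMIs). There were 2 libraries. CP+EVs came from animals treated with Cae and extracellular vesicles (EVs), and CP came from animals treated with Cae alone. The series title speaks of chronic pancreatitis, whereas the libraries are both labelled as an acute, Cae-induced form. The sources used here do not give strain, sex, age, the number of animals, or the source and dose of the vesicles. With 1 library per group there is no replicate check. Every difference compares these libraries, and all intervals are 95% intervals that cover counting error only.

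The alpha and beta chains of a class II molecule assemble in the endoplasmic reticulum with the invariant chain, which blocks the peptide groove until proteases degrade it in endosomes. H2-DM then exchanges the remaining invariant chain fragment for peptide, and H2-O, best known from B cells, restrains H2-DM. Ciita does not bind DNA itself but joins the RFX, CREB and NF-Y factors on the X and Y boxes of class II promoters. Dendritic cells, B cells and macrophages are the usual class II-bearing cells, plasma cells are known for switching Ciita off, and interferon gamma can switch it on in other cell types.

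In mm10, 8 of the members lie on chromosome 17 between H2-Oa, which starts at base 34092340, and H2-Eb1, which ends at base 34316674. Ciita lies on chromosome 16 (chr16:10480059-10528418). Positions are those of GENCODE vM21. RefSeq promoter windows of 300 bases (GRCm38.p6, 250 bases before the start to 50 after it) were at hand for 7 members, in 8 windows. The stretches around the NF-Y site GATTGG are shown because the same X and Y arrangement recurs in genes whose RNA behaved differently between cell types below. Each runs from 45 bases before GATTGG to 5 bases after it, 5′ to 3′ on the strand of the gene.
H2-Eb1 (chr17:34305762-34305817, plus strand): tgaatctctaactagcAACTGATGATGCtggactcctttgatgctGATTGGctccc
H2-DMb1 (chr17:34153084-34153139, plus strand): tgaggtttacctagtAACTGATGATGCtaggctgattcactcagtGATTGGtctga
H2-DMb2 (chr17:34145113-34145168, plus strand): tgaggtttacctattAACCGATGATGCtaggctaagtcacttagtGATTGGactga
H2-Ob (chr17:34238802-34238857, plus strand): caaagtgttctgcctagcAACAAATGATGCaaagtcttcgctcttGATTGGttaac
H2-Aa (chr17:34287862-34287917, minus strand): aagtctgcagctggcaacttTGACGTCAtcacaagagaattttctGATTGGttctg
H2-Oa (chr17:34092290-34092345, plus strand): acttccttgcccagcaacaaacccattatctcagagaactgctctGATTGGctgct
Capitals mark GATTGG, the X-box-like motif AACNNATGNTGC and the CREB-type motif TGACGTCA.

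The X-box-like letters were chosen after these promoters had been read, so their recurrence is a description. With both strands searched, AACNNATGNTGC stood in 0.122% of all 32851 promoter windows and in 4 of the 8 member windows. GATTGG stood in 16.1% of all windows and in 7 of the 8, and TGACGTCA in 1.79% of all windows and in that of H2-Aa. The X-box-like motif followed by GATTGG after 10 to 30 bases was found in 5 windows of the whole table, those of H2-Eb1, H2-DMb1, H2-DMb2, H2-Ob and H2-Eb2, a further class II beta chain gene. The gap between the motifs was 17 bases in H2-Eb1, 18 in both H2-DMb genes and 15 in H2-Ob, and GATTGG began 60, 62, 91 and 58 bases upstream of the start in H2-Eb1, H2-DMb1, H2-DMb2 and H2-Ob. The stretches of H2-DMb1 and H2-DMb2 were identical at 50 of 56 bases. In H2-DMa, GATTGG stood 199 bases upstream in 1 of its 2 windows, without the X-box-like motif. Letters absent from a window say nothing about the factors.

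There were 38532775 UMIs in the 8845 barcodes of CP+EVs and 51652425 UMIs in the 13507 barcodes of CP, with medians of 2884 and 1417 UMIs per barcode, and 118 barcode sequences occur in both. Barcodes were assigned to a cell class by the UMIs of marker genes that include no class II member. The libraries differed in free RNA, which gives UMIs in cells that do not make a gene. Acinar enzyme markers, for example, summed to between 10305 and 15844 CPM (UMIs per class, scaled to a common total) in the macrophage, dendritic, B, plasma, endothelial and mesothelial barcodes of CP+EVs, and to between 36.7 and 84.6 CPM in the same classes of CP. T cell barcodes, since mouse T cells are not known to make class II molecules, are used as a class II background. Their summed members took a median of 0.158% of the UMIs of a barcode in CP+EVs (509 barcodes) and 0.0818% in CP (556 barcodes). Acinar barcodes of CP+EVs held a higher median, 0.522% (2179 barcodes), so T cells may give too low a background there.

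Over whole libraries, the 10 members took 1.41% of all UMIs in CP+EVs and 0.720% in CP. Macrophage and dendritic barcodes carried the highest shares in CP+EVs, and dendritic barcodes in CP. Among CP+EVs barcodes the median share was 6.69% in macrophages (186 barcodes), 6.37% in dendritic cells (147), 2.65% in B cells (917), 0.432% in mesothelial cells (107), 0.420% in plasma cells (88) and 0.219% in endothelial cells (81). Among CP barcodes it was 0.549% in macrophages (1485), 4.04% in dendritic cells (200), 2.71% in B cells (322), 0.249% in mesothelial cells (99) and 0.328% in plasma cells (98). Only 2 CP barcodes passed the endothelial gate, with 10 class II UMIs in all, so no ratio is read from that class. The macrophage class thus ranked beside dendritic cells in CP+EVs and below B cells in CP. In CP+EVs the 10th to 90th percentiles of macrophages (3.15% to 9.50%) and dendritic cells (3.24% to 9.45%) covered nearly the same range.

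**Figure D1:**
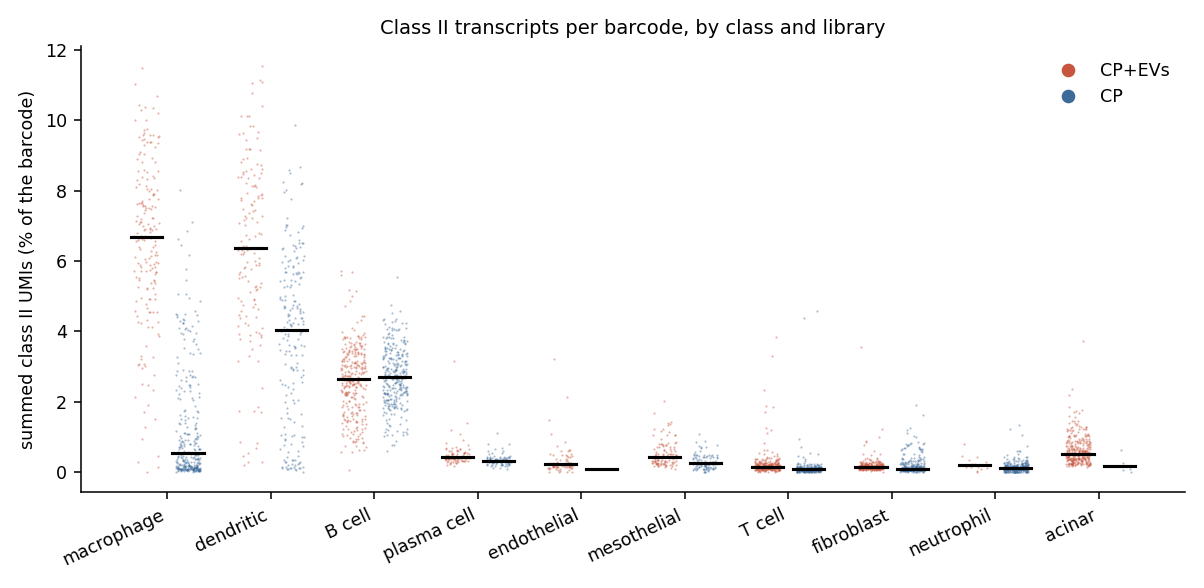
Summed UMIs of the 10 class II members as percent of all UMIs of a barcode (vertical axis) in 10 gated classes, with CP+EVs left of CP; points are barcodes (at most 300 drawn per class and library) and black lines are medians over all barcodes. The macrophage median is 6.69% in CP+EVs and 0.549% in CP, while the B cell medians are 2.65% and 2.71%.

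Macrophage barcodes of CP+EVs carried several times more class II RNA than those of CP, in every member that could be measured. Of these, H2-Ob lay only near or below the T cell level, and H2-DMb2 lay near it in CP. The summed members made up 6.42% of macrophage UMIs in CP+EVs (6.38 to 6.47) and 1.16% in CP (1.15 to 1.17), a ratio of 5.53 (5.48 to 5.58). At least 1% of UMIs were class II in 97.3% of CP+EVs macrophage barcodes (exact Clopper-Pearson interval 93.8 to 99.1) and in 36.8% of CP ones (34.3 to 39.3). The CP distribution was spread out, with the 10th percentile at 0.0803%, about the level of CP T cells, and the 90th at 3.45%, above the CP+EVs 10th percentile. The libraries overlapped, with the highest CP barcode at 8.01% and the lowest CP+EVs barcode at 0.

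Of the classical chains, H2-Eb1 stood at 12848 CPM in CP+EVs macrophages and 1820 CPM in CP macrophages, 7.06-fold higher (6.91 to 7.21). H2-Ab1 stood at 14868 and 2596 CPM, 5.73-fold higher in CP+EVs (5.62 to 5.84), and H2-Aa at 13816 and 2795 CPM, 4.94-fold higher (4.85 to 5.04). The invariant chain Cd74 lay between these with 21613 CPM in CP+EVs and 4048 CPM in CP (5.34-fold, 5.26 to 5.42). The 3 chains and Cd74 thus differed by similar factors.

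The peptide exchange genes did not move as a block. H2-DMa stood at 301 CPM in CP+EVs and 110.2 CPM in CP macrophages (2.73-fold, 2.42 to 3.07), and H2-DMb1 at 429 and 153 CPM (2.81-fold, 2.54 to 3.10). Their neighbour H2-DMb2 stood at 133 CPM in CP+EVs and 13.5 CPM in CP, a ratio of 9.90 (7.85 to 12.5). T cell barcodes held H2-DMb2 at 34.2 CPM in CP+EVs and 10.4 CPM in CP, so the CP macrophage level is near that background. The H2-DMb2 interval lies above that of H2-DMb1 over the whole class, but the H2-DMb2 ratio was smaller within subsets. It was 4.55 (3.26 to 6.46) with monocyte markers low, 3.51 (2.06 to 6.44) in barcodes high in Retnla and 3.27 (1.96 to 5.23) in those low in it, where H2-DMb1 had 2.29 (1.95 to 2.68) and the intervals overlapped. The inhibitor chain H2-Ob was scarce, with 59 UMIs (47.3 CPM) in CP+EVs and 71 UMIs (6.92 CPM) in CP, 6.84-fold higher in CP+EVs (4.76 to 9.79). T cell barcodes held H2-Ob at 43.8 CPM in CP+EVs and 19.0 CPM in CP. Macrophages thus lay near the T cell level in CP+EVs and below it in CP. Fibroblast barcodes held H2-Ob at 21.0 CPM in CP+EVs and 3.95 CPM in CP, and CP neutrophils at 5.39 CPM, all below macrophages. Acinar barcodes of CP+EVs held it at 81.5 CPM, above them. The comparison with a background thus depends on the class used. No H2-Oa UMI was found in macrophages, which allows at most 2.41 CPM in CP+EVs and 0.293 CPM in CP.

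Ciita, the transactivator, had the smallest ratio of the measured members over the whole class, but its interval overlapped those of H2-DMa and H2-DMb1. It stood at 164 CPM in CP+EVs and 69.0 CPM in CP macrophages (2.38-fold, 2.03 to 2.79). After each barcode was thinned to 1000 UMIs, 12.4% of CP+EVs macrophages (8.003 to 18.0) and 5.66% of CP ones (4.54 to 6.96) held a Ciita UMI, against 48.9% and 24.3% before thinning. Thinned T cell barcodes held one in 0.982% of CP+EVs and 0.719% of CP barcodes, at median depths of 3525 and 3185 UMIs against 5049.5 and 6200 in macrophages. Relative to its target genes Ciita was lower in CP+EVs, at 0.256% of the summed members (0.222 to 0.294), than in CP, at 0.595% (0.552 to 0.640).

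In macrophages, 9 of 9 measured members were at least 1.5-fold higher in CP+EVs, against 11.9% of all 6464 genes measured there, and 0 of 9 were lower, against 23.2%. Counted among them is H2-Ob, which lay near or below the T cell level. A gene counted as measured with at least 20 UMIs over both libraries and 20 CPM in 1 of them. H2-DMb2 (133 and 13.5 CPM) and H2-Ob (47.3 and 6.92 CPM) reached 20 CPM only in CP+EVs. The rule thus favoured their count as higher. The median log2 ratio was 2.42 over the members and -0.22 over all measured genes.

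**Figure D2:**
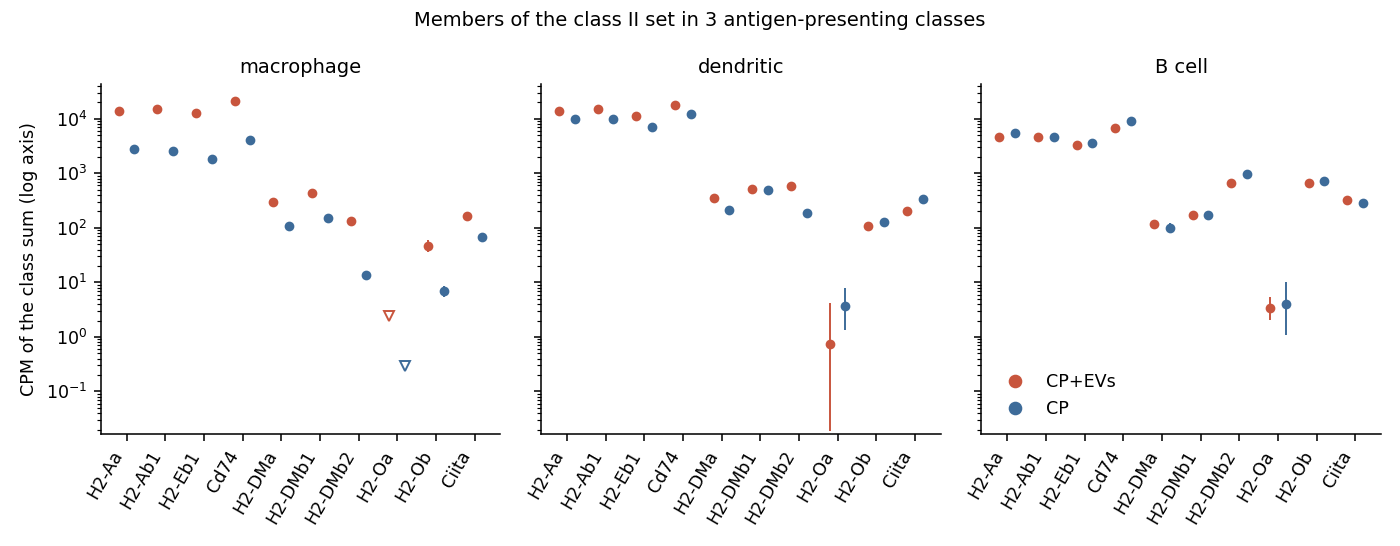
Level of each member in CPM of the class sum (log axis) in macrophage, dendritic and B cell barcodes, CP+EVs left of CP, with exact Poisson 95% intervals of the counts; open triangles are the level of 3 UMIs where none was found. In macrophages all drawn circles of CP+EVs lie above those of CP, in dendritic cells Ciita lies below, and in B cells the libraries lie close together.

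Markers outside the macrophage list also differed within the macrophage gate. Monocyte markers (6 of 6 with UMIs in both) summed to 777 CPM in CP+EVs macrophages and 6733 CPM in CP macrophages, and cDC2 markers (6 of 6) to 544 and 90.1 CPM. Retnla, a resistin-like protein, stood at 15845 CPM in CP+EVs and 273 CPM in CP macrophages, and the arginase Arg1 at 0.802 and 321 CPM. C1qa, a complement component of resident macrophages and itself a marker of the gate, stood at 416 and 130.0 CPM. How much of the class II difference goes with these markers was not tested, and the ratio is given within subsets. Where monocyte markers were under 20 per 10000 UMIs, the summed members took 6.55% in CP+EVs (172 barcodes) and 1.92% in CP (214 barcodes), which lowered the ratio to 3.42 (3.37 to 3.46). All 9 measured members were at least 1.5-fold higher there, against 10.3% of 6585 genes, and 0 were lower, against 26.8%. They ran from H2-DMb1, with 433 and 211 CPM (2.05-fold, 1.78 to 2.37), to H2-Ob, with 50.6 and 6.76 CPM (7.49-fold, 3.80 to 16.4), and Ciita stood at 166 and 71.6 CPM (2.32-fold, 1.82 to 2.97). For H2-Ob, T cells had 43.8 and 19.0 CPM, so that ratio is between levels near or below those of T cells. H2-Ob also reached 20 CPM, the line for a measured gene, only in CP+EVs here. H2-Eb1 stood 3.62-fold, Cd74 3.58-fold, H2-Ab1 3.43-fold and H2-Aa 3.10-fold higher in these barcodes. Without barcodes holding a UMI of the dendritic genes Flt3, Zbtb46 or Cd209a the ratio was 5.95, and without barcodes holding an Arg1 UMI it was 4.53.

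Within CP, macrophages with an Arg1 UMI had a median class II share of 0.267% (461 barcodes) and those without one 0.712% (1024 barcodes). The first of these were deeper, with a median of 8160 against 5394 UMIs. Among barcodes with at least 10 Retnla UMIs per 10000, the median share was 6.28% in CP+EVs (87 barcodes) and 2.62% in CP (33 barcodes). The set ratio was 2.13 (2.08 to 2.19) among them and 6.03 (5.96 to 6.11) among barcodes with fewer (99 in CP+EVs and 1452 in CP). The CP barcodes high in Retnla all held over 1% class II UMIs, with a lowest value of 1.68%.

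**Figure D3:**
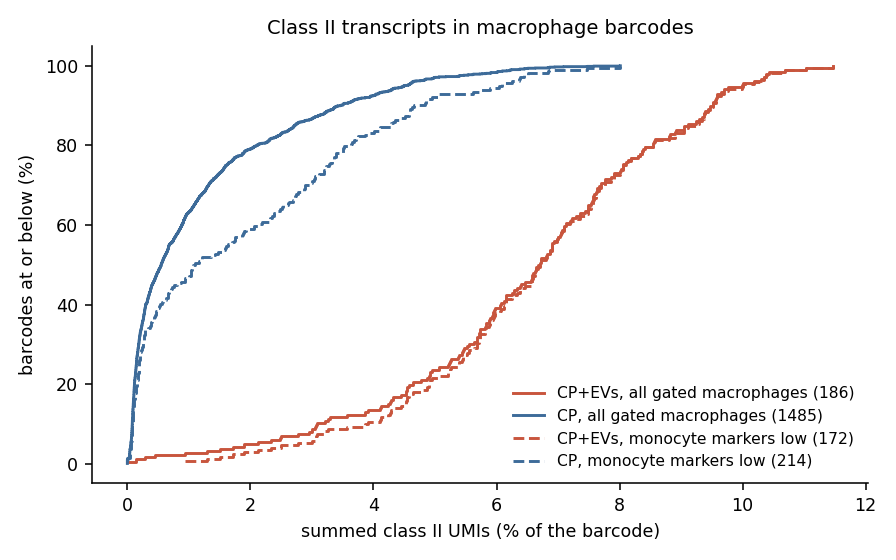
Cumulative percent of macrophage barcodes (vertical axis) at or below a given class II share of UMIs (horizontal axis), for all gated macrophages (solid) and for those with monocyte markers under 20 per 10000 UMIs (dashed). The CP+EVs curves lie right of the CP curves, and the dashed CP curve lies between them, with a median of 1.09%, while the dashed CP+EVs curve has a median of 6.72%.

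Dendritic barcodes differed less, and their members went apart. The summed members took 6.03% of UMIs in CP+EVs (5.99 to 6.07) and 4.02% in CP (3.99 to 4.05), a ratio of 1.498 (1.48 to 1.51). H2-Eb1 stood at 11502 CPM in CP+EVs and 7032 CPM in CP (1.64-fold, 1.597 to 1.68), H2-Ab1 at 15009 and 9819 CPM (1.53-fold, 1.497 to 1.56), and H2-Aa at 13891 and 9797 CPM (1.42-fold, 1.39 to 1.45). Cd74 stood at 18126.5 and 12209 CPM (1.48-fold, 1.46 to 1.51). H2-DMa stood at 351 and 213 CPM (1.65-fold, 1.43 to 1.90).

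The H2-DMb genes differed from each other here too. H2-DMb2 stood at 577 CPM in CP+EVs and 187 CPM in CP dendritic cells (3.08-fold, 2.70 to 3.53), while H2-DMb1 stood at 516 and 498 CPM, and the interval of its ratio, 0.934 to 1.15, included 1. H2-Ob stood at 110.1 and 131 CPM, and its interval, 0.677 to 1.04, also included 1. H2-Oa had 1 UMI in CP+EVs and 6 in CP.

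Ciita went the other way in dendritic cells. It stood at 204 CPM in CP+EVs and 344 CPM in CP, 1.69-fold lower in CP+EVs (1.46 to 1.96). The share of thinned barcodes with a Ciita UMI was 19.0% in CP+EVs (13.0 to 26.3) and 24.5% in CP (18.7 to 31.1), with overlapping intervals. Unthinned, 67.3% and 67.5% of dendritic barcodes held one, so the CPM and the share of barcodes do not show the same difference.

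In dendritic cells, 4 of 9 measured members were at least 1.5-fold higher in CP+EVs, against 10.1% of 6611 genes, and 1 was at least 1.5-fold lower, against 20.2%. The set ratio stood at this 1.5-fold line. It was 1.42 (1.41 to 1.44) in cDC2 alone, the subset that made up 100 of 147 CP+EVs and 120 of 200 CP dendritic barcodes, and 1.67 as a mean of per-cell values. In cDC2, 4 of 9 measured members were at least 1.5-fold higher, against 11.4% of 6406 genes, and 1 was lower, against 24.3%. That one was Ciita, with 191 CPM in CP+EVs and 379 CPM in CP cDC2 (1.98-fold lower, 1.65 to 2.39). In cDC1 barcodes, which cross-present antigen, the set took 5.73% in CP+EVs (23 barcodes) and 3.49% in CP (26 barcodes), and Ciita stood at 293 and 315 CPM. Macrophage markers summed to 1635 CPM in CP+EVs and 1399 CPM in CP dendritic barcodes (8 of 8 with UMIs in both), monocyte markers to 850 and 1301 CPM, and B cell markers to 160 and 38.6 CPM. Their part in these ratios was not tested.

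B cell barcodes had about the same class II share in the libraries. The set took 2.14% of UMIs in CP+EVs (2.13 to 2.15) and 2.52% in CP (2.49 to 2.56), a ratio of 0.848 (0.837 to 0.860). No measured member reached a 1.5-fold difference, with 0 of 9 higher against 14.4% of 6872 genes and 0 of 9 lower against 15.2%. H2-DMb2, with 674 CPM in CP+EVs and 968 CPM in CP, was the furthest from level (1.44-fold lower, 1.34 to 1.54), followed by Cd74 with 6906 and 9166 CPM (1.33-fold lower, 1.30 to 1.36). H2-Ab1 stood at 4592 and 4712 CPM and H2-Ob at 678 and 712 CPM, and the intervals of both ratios included 1. Ciita stood at 328 and 283 CPM (1.16-fold higher, 1.02 to 1.32).

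The gated B cells differed in make-up. Barcodes with at least 2 germinal centre markers numbered 259 of 917 in CP+EVs and 14 of 322 in CP, and their set level was 1.66% in CP+EVs and 1.98% in CP. Barcodes with at least 5 UMIs per 10000 of Ighd, which marks mature naive B cells, and no germinal centre marker numbered 493 in CP+EVs and 242 in CP. Their set level was 2.97% in CP+EVs (2.94 to 2.997) and 2.75% in CP (2.71 to 2.80), so that the ratio turned to 1.08 (1.06 to 1.10). Among these, 1 of 9 measured members was at least 1.5-fold higher, against 7.74% of 6645 genes, and 0 were lower, against 12.6%. It was Ciita, with 497 CPM in CP+EVs and 319 CPM in CP (1.56-fold, 1.33 to 1.83). The genes it controls differed less there, as H2-Eb1 with 4519 and 3702 CPM (1.22-fold, 1.16 to 1.28) and H2-Aa with 6669 and 6291 CPM (1.06-fold, 1.02 to 1.10) show. By counting error alone, Ciita thus stood higher in CP+EVs in macrophages and Ighd B cells and lower in dendritic cells, though in cDC1 its interval, 0.655 to 1.32, included 1. A count of 1 of 9 members is near the share of all genes in Ighd B cells (7.74%). In dendritic cells it is below that share (20.2%).

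**Figure D4:**
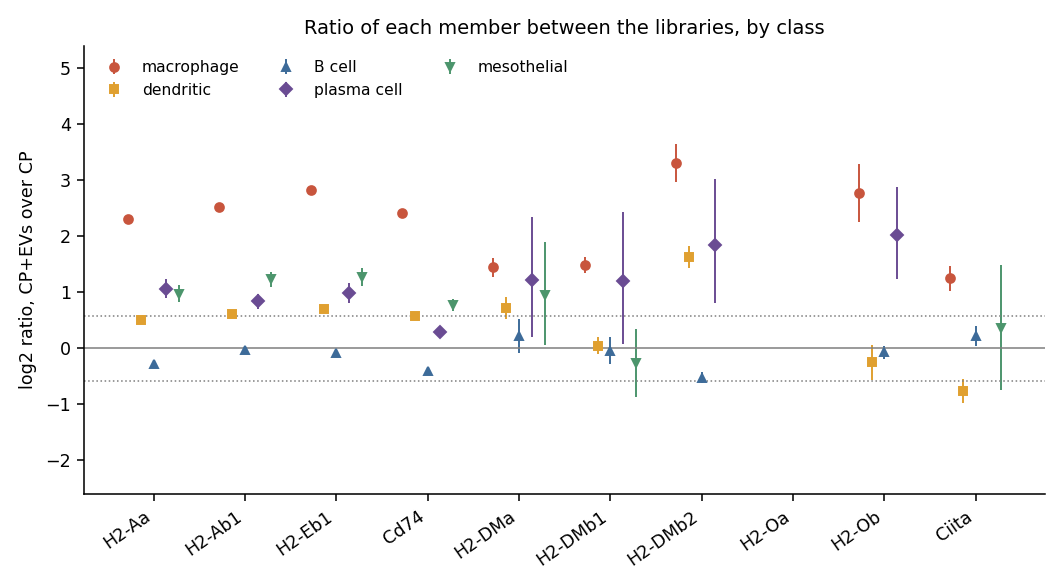
Log2 ratio of each member, CP+EVs over CP (vertical axis), in 5 classes with exact 95% counting intervals; dotted lines mark 1.5-fold, and members with under 20 UMIs in all or under 5 in either library are left out. Macrophage points lie between 1.255 and 3.31, while Ciita falls below the lower line in dendritic cells, at about -0.75.

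Plasma, mesothelial and endothelial barcodes carried low class II levels, so the background matters for them. T cell barcodes held the pooled set at 0.297% in CP+EVs and 0.151% in CP, a ratio of 1.97 (1.89 to 2.06). Acinar barcodes of CP+EVs held a median of 0.522%, above the plasma, mesothelial and endothelial medians there. How much of the levels and ratios of these classes goes with free RNA was not tested. In plasma barcodes the set took 0.512% of UMIs in CP+EVs (0.499 to 0.525) and 0.340% in CP (0.330 to 0.351), a ratio of 1.503 (1.44 to 1.57). With the per-barcode T cell median of each library, 0.158% and 0.0818%, subtracted from these pooled shares the ratio was 1.37. Those medians lie below the pooled T cell shares of 0.297% and 0.151%, whose subtraction was not made, so the background taken off here is low. Of 7 measured members 6 were at least 1.5-fold higher, against 6.96% of 4888 genes, and 0 were lower, against 29.0%. Among the higher ones, H2-DMa (23.9 and 10.2 CPM), H2-DMb2 (30.8 and 8.52 CPM) and H2-Ob reached 20 CPM only in CP+EVs. The rule for measured genes thus favoured their count as higher. H2-Aa stood at 751 CPM in CP+EVs and 359 CPM in CP plasma barcodes (2.09-fold, 1.86 to 2.35), where T cells had 609 and 326 CPM. H2-Ob stood at 59.0 and 14.5 CPM (4.07-fold, 2.37 to 7.39), where T cells had 43.8 and 19.0 CPM. Cd74 stood at 2615 and 2132 CPM (1.23-fold, 1.16 to 1.29), against 967 and 506 CPM in T cells. Cd74 was 51.1% of the summed members in CP+EVs plasma barcodes and 62.6% in CP ones, and 32.6% and 33.6% in T cells, so plasma barcodes did not hold the members in the proportions of the T cell background. Ciita had 8 UMIs in CP+EVs and 3 in CP plasma barcodes, and H2-Oa none.

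In mesothelial barcodes, the lining cells of the pancreatic surface, the set took 0.513% of UMIs in CP+EVs (0.4995 to 0.527) and 0.258% in CP (0.2496 to 0.267), a ratio of 1.99 (1.90 to 2.08) that was 2.01 with the T cell median subtracted. Of 6 measured members 5 were at least 1.5-fold higher, against 16.4% of 7241 genes, and 0 were lower, against 16.9%. Among the higher ones, H2-DMa (27.6 and 14.2 CPM) reached 20 CPM only in CP+EVs, which favoured its count as higher. H2-Eb1 stood at 950.0 CPM in CP+EVs and 394 CPM in CP (2.41-fold, 2.16 to 2.69) and H2-Ab1 at 1251 and 533 CPM (2.35-fold, 2.14 to 2.58). Cd74 stood at 1896 and 1110.0 CPM (1.71-fold, 1.59 to 1.83). H2-DMb1, with 39.1 and 46.6 CPM, was the member that did not pass 1.5-fold. In T cell barcodes the set ratio was 1.97, with H2-Aa at 1.87, H2-Ab1 at 2.03, H2-Eb1 at 2.07 and Cd74 at 1.91. The mesothelial ratios were thus similar to those of T cells. Fibroblast barcodes, another possible background, held the set at 0.172% in CP+EVs and 0.137% in CP, with a ratio interval of 1.23 to 1.28. Their ratios were 1.24 for H2-Aa, 1.455 for H2-Ab1, 1.41 for H2-Eb1 and 1.03 for Cd74, all below the mesothelial ones. How the mesothelial ratios compare with a background thus depends on the class used. After thinning, 67.3% of CP+EVs mesothelial barcodes (57.5 to 76.0) and 37.4% of CP ones (27.9 to 47.7) held an H2-Ab1 UMI, against 37.3% and 18.0% of T cell barcodes. Ciita had 16 and 15 UMIs, or 15.2 and 11.9 CPM, near the T cell level of 14.5 and 8.596 CPM. Collagen and other fibroblast markers differed between these barcodes, with 14225 CPM in CP+EVs and 31036 CPM in CP. In barcodes low in them (91 in CP+EVs and 21 in CP) the ratio was 1.82, and in those high in them, with 0.867% in CP+EVs (16 barcodes) and 0.263% in CP (78 barcodes), it was 3.30 (3.09 to 3.52).

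The 81 endothelial barcodes of CP+EVs held the set at 0.492% of UMIs (0.471 to 0.513) but at a median of 0.219%, against 0.158% in T cells, so a few barcodes held much of it. The highest barcode reached 3.22%. H2-Aa stood at 1085 CPM, H2-Ab1 at 1160.2 CPM and Cd74 at 1544 CPM there. After thinning, 37.0% of them (26.6 to 48.5) held an H2-Ab1 UMI, close to the 37.3% of T cells, and 63.0% held an H2-Aa UMI, against 29.1%.

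Shares within pairs of genes do not depend on the depth of a class and show where the members parted. UMIs are not divided by transcript length, so a share is compared between classes and not read as more of one gene than of the other. H2-Ob as a share of H2-Ob and H2-Ab1 was higher in B cells than in the other classes given here. It was 12.9% in CP+EVs B cells (12.5 to 13.3) and 13.1% in CP B cells (12.2 to 14.1), and 0.317% (0.242 to 0.409) and 0.266% (0.208 to 0.335) in macrophages. Dendritic cells lay at 0.728% in CP+EVs (0.616 to 0.855) and 1.32% in CP (1.15 to 1.504). In T cells it was 5.98% (4.84 to 7.29) and 5.30% (3.85 to 7.10), and over whole libraries 4.28% and 1.71%. Plasma barcodes lay at 5.64% in CP+EVs (4.41 to 7.08), with an interval that overlaps that of T cells, and at 2.55% in CP (1.49 to 4.06). Endothelial barcodes of CP+EVs lay at 3.77% (2.32 to 5.76), and mesothelial ones at 0.980% in CP+EVs (0.523 to 1.67) and 0.442% in CP (0.0913 to 1.29), below the interval of T cells.

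H2-DMb2 as a share of both H2-DMb genes ordered the antigen-presenting classes in the same way in the libraries, lowest in macrophages and highest in B cells. It was 23.7% in CP+EVs macrophages (20.6 to 27.01) and 8.10% in CP macrophages (6.85 to 9.50), and 52.8% (50.2 to 55.4) and 27.3% (24.8 to 30.1) in dendritic cells. In B cells it was 79.9% in CP+EVs (78.7 to 81.1) and 84.8% in CP (82.6 to 86.8). The intervals of the classes do not overlap within a library, nor those of the libraries within a class. Over the whole classes the share was higher in CP+EVs in macrophages and dendritic cells, and lower in B cells. Within subsets this did not always hold. Among macrophages low in Retnla it was 10.6% in CP+EVs (6.69 to 15.8) and 7.68% in CP (6.42 to 9.09), and among Ighd B cells 81.6% (79.8 to 83.3) and 83.3% (80.4 to 86.0), with overlapping intervals. Among macrophages high in Retnla it was 28.8% (24.9 to 33.0) and 14.9% (8.56 to 23.3). Among cDC2 it was 56.2% in CP+EVs and 26.9% in CP, and among cDC1 30.9% (24.6 to 37.7) and 22.8% (15.7 to 31.2), with overlapping intervals. Whole libraries held it at 63.8% in CP+EVs and 31.8% in CP, and what share of the macrophage and dendritic difference goes with free RNA was not tested. The last 500 bases of the longest coding transcripts of H2-DMb1 and H2-DMb2 shared 4 of 470 exact stretches of 31 bases. No other pair of members shared any. Exact stretches miss similar sequence with scattered differences, so this does not measure how alike the 3′ ends are. Whether reads of these H2-DMb genes were assigned to each other was not tested.

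**Figure D5:**
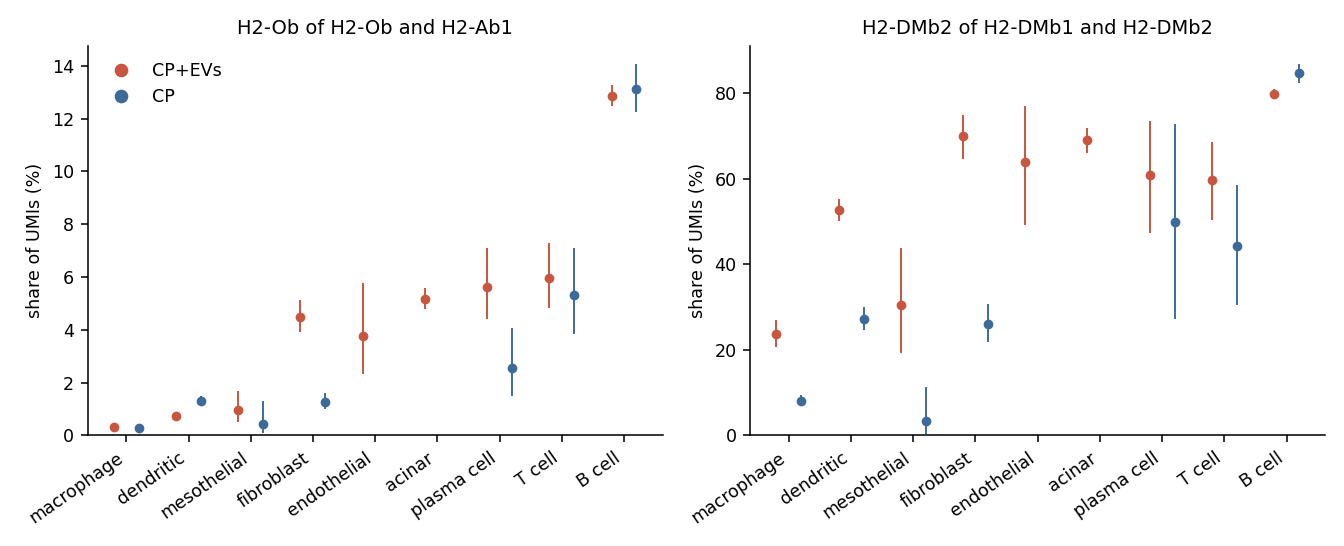
UMIs of H2-Ob as percent of H2-Ob and H2-Ab1 (left) and of H2-DMb2 as percent of both H2-DMb genes (right) in 9 classes, CP+EVs left of CP, with exact Clopper-Pearson 95% intervals; the 2 endothelial and 7 acinar barcodes of CP are not drawn. B cells lie highest in both panels, at 12.9% and 13.1% for H2-Ob, and macrophages lie lowest for H2-Ob.

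The other genes of the class II pathway are counted here beside the shares of all measured genes, which in macrophages were 11.9% at least 1.5-fold higher in CP+EVs and 23.2% lower. Of 12 listed transcription factors 10 were measured in macrophages, with 2 higher and 1 lower, and a median log2 ratio of -0.01. Irf4, an interferon regulatory factor, stood at 44.1 CPM in CP+EVs and 10.9 CPM in CP macrophages (4.04-fold, 2.87 to 5.63), and at 47.2 and 26.4 CPM with monocyte markers low (1.79-fold, 1.17 to 2.77). Of 7 antigen-processing proteases 0 were higher and 2 were lower in macrophages. The counts of these lists are too small to set them apart from all genes. Ctsl, cathepsin L, stood at 144 CPM in CP+EVs and 611 CPM in CP (4.23-fold lower, 3.65 to 4.93), and Lgmn, the endosomal asparaginyl protease, at 237 and 833 CPM (3.52-fold lower, 3.13 to 3.96). With monocyte markers low they stood 3.26-fold and 3.24-fold lower in CP+EVs.

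Of 6 genes of class II turnover and costimulation 2 were higher in CP+EVs macrophages and 0 lower. Cd83, a surface protein that slows the removal of class II molecules, stood at 676 CPM in CP+EVs and 193 CPM in CP (3.51-fold, 3.23 to 3.80). In dendritic cells Cd83 stood at 929.9 and 440.3 CPM (2.11-fold, 1.93 to 2.32), and in plasma barcodes at 99.1 and 40.02 CPM (2.48-fold, 1.75 to 3.55). Of 4 genes of the interferon gamma receptor complex 0 were higher and 1 lower in macrophages, and 0 were higher and 2 lower in dendritic cells, where 10.1% of all genes were higher and 20.2% lower. Ifngr2 stood at 84.8 CPM in CP+EVs and 146 CPM in CP dendritic cells (1.72-fold lower, 1.37 to 2.17). In the same cells Nfyb, an NF-Y subunit, stood at 29.0 and 54.5 CPM (1.88-fold lower, 1.28 to 2.81). Cd4, the T cell coreceptor, stood at 58.0 and 27.6 CPM (2.11-fold, 1.44 to 3.11), but in cDC2, most of the class, it had 2 UMIs in CP+EVs and 13 in CP, the other direction.

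In B cells 1 of 10 measured transcription factors was higher and 3 were lower in CP+EVs, and 5 of 7 proteases were lower, against 14.4% of all genes higher and 15.2% lower. Among Ighd B cells 0 of 11 measured factors were higher and 3 lower, and 3 of 7 proteases were lower, against 7.74% and 12.6%. Irf8 stood at 449 CPM in CP+EVs and 259 CPM in CP (1.73-fold, 1.52 to 1.98), and at 362 and 257 CPM among Ighd B cells (1.41-fold, 1.18 to 1.69). Ctss, cathepsin S, which trims the invariant chain, stood at 569 and 971 CPM (1.71-fold lower, 1.59 to 1.83), but at 874 and 984 CPM among Ighd B cells (1.13-fold lower, 1.02 to 1.24). Ctsb, cathepsin B, stood at 172 and 327 CPM (1.90-fold lower, 1.67 to 2.16). The protease lists held 0 members higher and 3 lower of 7 in plasma barcodes, against 6.96% and 29.0% of all genes, and 0 higher and 4 lower of 7 in mesothelial ones, against 16.4% and 16.9%. Ctsz, cathepsin Z, stood at 22.2 and 79.2 CPM in plasma barcodes (3.56-fold lower in CP+EVs, 2.29 to 5.74), where Ctsb and Lgmn were also among the named genes, with 410.2 and 569.7 CPM and 36.7 and 61.3 CPM. In mesothelial barcodes Lgmn stood at 44.8 and 144 CPM (3.21-fold lower, 2.32 to 4.52), Ctss at 45.7 and 138 CPM, Ctsz at 33.4 and 62.4 CPM, and Ifngr1, a chain of the interferon gamma receptor, at 182 and 67.9 CPM (2.68-fold, 2.07 to 3.50). Macrophage markers also summed to less in CP+EVs than in CP in these classes. They stood at 126 and 376 CPM in B cell, 169 and 397 CPM in plasma, and 150 and 363 CPM in mesothelial barcodes. How much of the protease differences goes with free macrophage RNA was not tested.

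Over 23 points, each a class in a library with at least 30 barcodes, the level of the summed members was set beside that of every other gene with at least 100 UMIs by Pearson correlation of log2 CPM. The points share library, depth and free RNA, so the values are descriptions. Cd83 came closest (0.931). It was followed by Gm6377 (0.923), the calcium channel Ryr1 (0.901), the costimulatory receptor Cd40 (0.894), Plekho1 (0.889), the B cell and macrophage receptor Cd180 (0.885), Fgd2 (0.864), the small GTPase Rab39 (0.864), Ly86, the partner of Cd180 (0.852), and Gm15987 (0.849). Among the members themselves, correlation with the sum was 0.914 for Ciita, 0.820 for H2-DMb2 and 0.693 for H2-Ob, the lowest of the 9 that could be set beside it.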

How the data were processed

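Pancreas cells were captured with BD Rhapsody in 1 library per group, per the labels. The files deposited by the authors hold UMI counts, whole numbers for every gene and barcode with no scaling. The submitters' processing notes list CASAVA 1.8, UMI-tools, Seurat and mm10 with no roles. The sources used here do not name the aligner, the annotation or the rule for calling cells. Every deposited barcode held at least 501 UMIs.

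Barcodes were kept with at least 1000 UMIs, at least 200 genes and no more than 25% of UMIs mitochondrial, 6849 in CP+EVs and 8426 in CP. Each of 18 gates asked for a number of distinct markers and of marker UMIs per 10000 (macrophages 3 markers and 40, B cells 3 and 20, plasma cells 2 and 100, endothelial cells 3 and 40, mesothelial cells 3 and 30, dendritic subsets 2 or 3 and 8). These thresholds and the subsets were set after the data were seen. Barcodes passing 1 gate were used (5844 and 6818); those passing several (299 and 308) were taken as possible doublets and left out, and no doublet caller was run. Of the macrophage barcodes, 29 in CP+EVs and 252 in CP lay under 1.25 times the minimum. The gates define ranges of marker level, not proven cell types.

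UMIs were summed per class and library, as percent or CPM of the class sum, with exact Poisson intervals. Ratios are CP+EVs over CP with exact conditional intervals, log2 ratios add 0.5 counts, and shares have exact Clopper-Pearson intervals. Pearson correlations used log2 of CPM plus 10. Barcodes were thinned to 1000 UMIs for shares of barcodes with a UMI. No test was made, because cells are not replicates. A level of 3 counts is the limit for a count of 0. The ratio and interval steps were tested on simulated Poisson counts with 200 changed genes. Named genes are all members, up to 4 genes per class from the other lists (at least 100 UMIs, largest absolute log2 ratio) and the 10 genes of most similar pattern. The values of 1 gene that this rule names in B cells are not reported here. The members, lists, markers and rules were chosen with earlier results of these data known. The annotation has Brd2 overlapping H2-DMa and Dexi overlapping Ciita on the opposite strand, and whether the counting used strand is not given. Alternatives were another scaling, per-cell means, thinning, subtraction of the per-barcode T cell median from pooled shares, other gates and no filters. Python 3.11.15, NumPy 2.4.6, SciPy 1.17.1 and pandas 2.3.3 were used.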

Additional observations from a re-analysis of the deposited data

Results flagged for a closer look

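Ciita differed in opposite directions in 2 classes of antigen-presenting cells. Its log2 ratio of CP+EVs over CP was 1.255 in macrophages and -0.75 in dendritic cells, and both counting intervals exclude a ratio of 1. The difference between these classes was not tested, since each group has 1 library. The direction was the same in macrophages with monocyte markers low (1.21) and in cDC2 (-0.99). In cDC1 it was -0.10, with a ratio interval of 0.655 to 1.32 that included 1. The few mature dendritic barcodes held 11 Ciita UMIs in CP+EVs and 0 in CP. Of all measured genes, 11.9% were at least 1.5-fold higher in macrophages and 20.2% at least 1.5-fold lower in dendritic cells. The intervals of the thinned dendritic barcode shares with a Ciita UMI overlapped.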

How the results depend on the processing

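The log2 ratio of the summed members was 2.47 in macrophages, 0.58 in dendritic cells, -0.24 in B cells, 0.59 in plasma and 0.99 in mesothelial barcodes. Median-of-ratios scaling gave 2.64, 0.76, -0.18 and 0.83 in macrophages, dendritic, B and plasma barcodes. Means of per-cell values gave 2.45 in macrophages, 0.74 in dendritic, -0.073 in B and 0.85 in mesothelial barcodes. Thinning to 1000 UMIs gave 0.75 in dendritic, -0.041 in B, 0.43 in plasma and 0.74 in mesothelial barcodes, and no endothelial value. Subtracting the T cell median gave 2.54 in macrophages, -0.30 in B, 0.45 in plasma and 6.92 in endothelial barcodes, where 2 CP barcodes allow no ratio to be read. That median is per barcode and lies below the pooled T cell share. A gate with 1 more marker gave 2.45 in macrophages and 0.67 in dendritic cells, and keeping barcodes of several gates 2.31, 0.61 and -0.26 in macrophages, dendritic and B cells. Added after seeing the data, macrophages gave 1.77 with monocyte markers low, 1.09 and 2.59 with Retnla high and low, 2.18 without Arg1 UMIs and 2.57 without Flt3, Zbtb46 or Cd209a UMIs. Dendritic cells gave 0.51 as cDC2 only, B cells 0.11 as Ighd cells only, which turns their sign, and mesothelial barcodes 0.87 with collagen low and 1.72 with collagen high. The causes were not tested. With no minimum of UMIs, the share of genes at least 1.5-fold higher in macrophages was 36.1%. No paired analysis was possible because each group has 1 library and the labels give no replicate numbers. H2-Oa, with at most 18 UMIs in a class, is too scarce for a ratio in any class.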

Other observations

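Some gated classes stand outside the comparisons because a library holds few or none of their barcodes. The 2179 acinar barcodes of CP+EVs held the summed members at a median of 0.522% of UMIs, above the 0.158% of T cells in that library, and 7 acinar barcodes were found in CP. H2-Ob was 5.17% of H2-Ob and H2-Ab1 in these acinar barcodes (4.79 to 5.57) and H2-DMb2 was 69.1% of both H2-DMb genes (66.1 to 71.9), against 4.28% and 63.8% over the whole library. Neutrophil barcodes held a median of 0.2001% in CP+EVs (19 barcodes) and 0.109% in CP (1937 barcodes). The ductal median was 0.196% in CP+EVs (79 barcodes) and 0.445% in CP (8 barcodes).

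Among rare dendritic barcodes, mature cells with Ccr7 held the set at 2.56% of UMIs in CP+EVs (8 barcodes) and 1.68% in CP (3 barcodes). Plasmacytoid cells held it at 1.90% in CP+EVs (5 barcodes) and 0.818% in CP (17 barcodes). In the fibroblasts, H2-Ob was 4.49% of H2-Ob and H2-Ab1 in CP+EVs (3.92 to 5.12) and 1.27% in CP (0.988 to 1.602), each near the share of its whole library, 4.28% and 1.71%.

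H2-Eb2, the further beta chain gene whose promoter holds both motifs, stood at 224 CPM in CP+EVs and 214 CPM in CP B cells, with an interval of the ratio, 0.906 to 1.22, that included 1. In dendritic cells it stood at 39.4 CPM in CP+EVs and 17.1 CPM in CP (2.30-fold, 1.43 to 3.78), on 53 and 28 UMIs. Macrophages held 9 and 13 UMIs of it.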
